A study of Drosophila melanogaster with 3 samples.

Results

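The respiratory chain genes described here are 88 of the 13945 protein-coding genes on the 6 major chromosome arms of Drosophila melanogaster. The rule that picks them reads the gene symbol and no binding value, and takes genes whose symbol starts with ND- (complex I), Sdh (complex II), UQCR- (complex III), COX (complex IV) or ATPsyn (complex V, the ATP synthase). Chromatin immunoprecipitation followed by sequencing (ChIP-seq) located the protein Insensitive (Insv) on chromatin. The material was embryos, whole and of both sexes pooled, collected at 0 to 24 h, from a single transgenic fly line that stably expresses Insv with GFP at its C-terminal end. Chromatin of 3 biological replicates was sonicated to 200 to 800 bp and precipitated with an antibody against GFP. All replicates belong to 1 group without a second condition. Genes are therefore compared with each other, and signal from all cell types and stages of the embryo is mixed.

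Insv is a nuclear protein whose BEN domain binds DNA, and it is known as a corepressor in the Notch pathway. The respiratory chain sits in the inner mitochondrial membrane. Complexes I and II pass electrons from NADH and succinate to ubiquinone, complex III passes them to cytochrome c, and complex IV passes them to oxygen. Complexes I, III and IV pump protons, and complex V uses the returning protons to make ATP. Complex II is built wholly from nuclear genes, while the other complexes also hold subunits coded in mitochondrial DNA. In flies many nuclear genes of the chain have a duplicate, often named with the suffix L, and such duplicates are known for expression in the testis. Expression was not measured here.

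A gene is called bound where the summit of a region in the authors' reproducible list lies within 500 bp of any of its transcription start sites (TSSs). That list holds the 4753 regions that passed the authors' test of irreproducible discovery rate (IDR) between replicates. Ranks are by the signal the authors' peak caller gave each region, with rank 1 the strongest, out of 4753 in the reproducible list and out of 30000 in each replicate's own list. A gene's rank is that of its strongest region within 500 bp of a TSS. For counts in single replicates, the 4753 strongest regions of each were used. The depth is unknown, since the sources used here give no read numbers, and the precision rests on the spread between the replicates. At a q-value below 0.05 the replicates held 8416, 13955 and 12195 regions, replicate 2 the most. Positions are on the dm6 build and count from 1.

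Of the 25 bound genes, 3 held an Insv site within 50 bp of the strongest promoter summit, and their sequences are shown because they tie a named site to a strong region at a named gene. The Insv core site is the palindrome CCAATTGG, and a longer degenerate form of it was also searched, on both strands, with overlapping matches allowed. The ND-18 sequence is chrX:19492318-19492418, which lies between genes. The ND-49 sequence is chr4:570534-570603, in an intron. The ND-ASHI windows, 1 and 2, are chrX:6678854-6678883 and chrX:6678910-6678939, both in a 5′ UTR. All are on the plus strand, 5′ to 3′, and the capitals mark the Insv site, in ND-18 the joined span of a pair of overlapping degenerate matches.
ND-18: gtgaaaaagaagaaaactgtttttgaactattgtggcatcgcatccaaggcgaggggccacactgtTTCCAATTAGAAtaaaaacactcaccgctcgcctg
ND-49: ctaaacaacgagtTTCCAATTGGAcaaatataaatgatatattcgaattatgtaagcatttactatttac
ND-ASHI window 1: gaacggacgttCCAATTGGcacaccactgc
ND-ASHI window 2: ggcgcgcgactCCAATTGGaagccgtcgca

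The ND-18 site lay 21 bp from the summit by 1 match and 22 bp by the other. The ND-49 site lay 31 bp from the summit. ND-ASHI held 3 copies of the core site, with centres 16, 23 and 40 bp from the summit. These were the 3 best-ranked bound genes of complex I. An Insv site within 50 bp was therefore found at 12.0% of the 25 bound genes, beside 5.09% of all 3456 bound protein-coding genes. With the window widened to 250 bp the same 3 genes had a site, beside 10.2% of all bound genes. The best-ranked gene of the whole family, ATPsynF, had neither form of the site within 250 bp of its summit. The related sequence CCAATAAG, the asymmetric site of the Elba complex, was found within 50 bp at 0 of the 25 bound genes and at 1.30% of all bound genes.

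Across the family as a whole, Insv binding was close to that of any gene. Of the 88 respiratory chain genes, 25 were bound, which is 28.4% (Wilson 95% interval 20.0 to 38.6, counting error only), beside 24.8% of all protein-coding genes. In the replicates' own lists 23, 29 and 18 of the 88 were bound. The same lists held 25.1%, 24.4% and 22.0% of all genes in replicates 1, 2 and 3. The share was 26.5% ± 6.26 of respiratory chain genes and 23.8% ± 1.59 of all other genes (SD, n = 3). The difference of 2.69 points ± 5.28 was smaller than its own spread and was positive in 2 of 3 replicates (exact sign-flip permutation test over replicates, two-sided, p = 0.75, where 0.25 is the smallest p that 3 replicates allow). The count of 25 depends on what is asked of the replicates, since 14 genes had a reproducible summit within the strongest regions of both other replicates without replicate 1, 13 without replicate 2 and 19 without replicate 3.

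Within the family the genes fell into groups with different shares. The 24 genes with the L suffix were bound in 0 cases, while the other 64 genes, called subunits below, were bound in 25 cases (39.1%, Wilson 95% interval 28.1 to 51.3). In the replicates' own lists 0 of the 24 L-suffix genes were bound each time, against 35.9%, 45.3% and 28.1% of the 64 subunits. The shares of all protein-coding genes were 25.1%, 24.4% and 22.0% there, and 24.8% in the reproducible list. The values of the L-suffix genes and of the subunits did not overlap. With every L-suffix value at 0 a difference could take only 1 sign, so no test is given. A count of 0 of 24 allows a share of up to 12.5% by the limit of 3 counts, and the upper Wilson 95% bound is 13.8%. The 64 subunits exceeded all other genes in 3 of 3 replicates, by 10.9, 20.9 and 6.09 points, a mean of 12.6 ± 7.58 (exact sign-flip permutation test, two-sided, p = 0.25, the smallest possible).

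**Figure D1:**
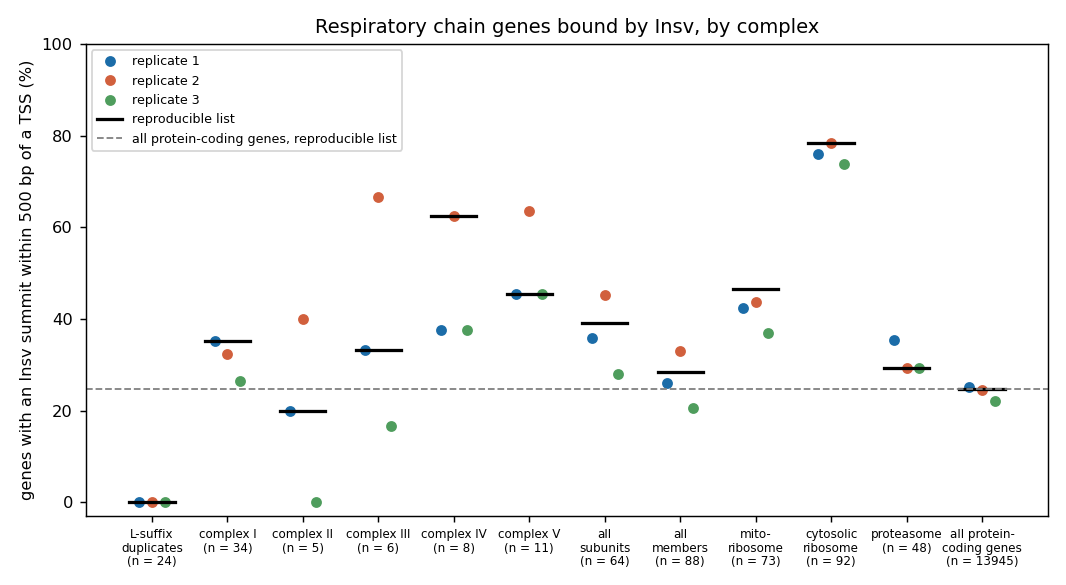
Share of genes with an Insv summit within 500 bp of a TSS (percent, vertical axis) for the L-suffix duplicates, the subunits of each complex without those duplicates, and comparison groups. Points are the 3 replicates' own lists, bars the reproducible list, and the dashed line the 24.8% of all protein-coding genes. The duplicates sit at 0 in every list, and the replicates of complexes II and III spread most.

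The window and the assignment rule changed the counts. Within 250 bp the same number, 25 of the 88 genes, were bound, while the share of all genes was smaller, at 20.9%, and within 1000 bp 30 were bound beside 27.5%. When a summit counted only for the gene whose TSS was nearest, up to 5000 bp away, 20 of the 88 were bound beside 21.2% of all genes. In the stronger 50% of the list 12 were bound beside 13.0% of all genes. A region with a q-value below 0.05 in all 3 replicates stood at 31 of the 88 genes (35.2%), beside 30.9% of all genes. All 31 were subunits, 48.4% of the 64, against 0 of the 24 L-suffix genes.

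Complex I, NADH dehydrogenase, is the largest of the complexes, with 34 subunit genes here, of which 12 were bound in the reproducible list (35.3%, Wilson 95% interval 21.5 to 52.1), beside 24.8% of all genes, a share inside that interval. The replicates' own lists held 12, 11 and 9 of them (31.4% ± 4.49, SD, n = 3). Of the 7 core subunits, which carry the flavin and the iron-sulfur centres and have bacterial counterparts, 3 were bound. Of the 27 accessory subunits, which surround that core, 9 were bound. Core and accessory shares in the replicates were 38.1% ± 16.5 and 29.6% ± 3.70, a difference smaller than the spread of the core share.

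ND-18, an accessory subunit of the arm that takes up NADH, had the strongest complex I region, at ranks 79, 72 and 85 in replicates 1, 2 and 3. Its region was chrX:19491843-19492829, with the summit 53 bp upstream of the ND-18 TSS. ND-ASHI, an accessory subunit of the membrane arm, followed at ranks 167, 196 and 161, with a summit 234 bp downstream of its TSS. These ranks barely moved between replicates. ND-49, a core subunit at the ubiquinone site, lies on chromosome 4 and had ranks 1150, 648 and 673. ND-B17.2, an accessory subunit, had ranks 1025, 1378 and 1484, with the summit 12 bp downstream of its TSS. ND-51, the core subunit that binds NADH and FMN, had ranks 1303, 1815 and 1992. ND-51 ranked behind both of the others in every replicate, whereas ND-49 ranked behind ND-B17.2 in replicate 1 and ahead of it in the others. The other 7 bound genes were ND-MNLL, ND-42, ND-MWFE, ND-SGDH, ND-B8, ND-PDSW and ND-23, at reproducible-list ranks 2055 to 4681. ND-23, a core subunit with iron-sulfur centres, was the weakest of them at 4681.

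Among the unbound core subunits of complex I, ND-24, an iron-sulfur protein of the NADH-binding part, had ranks 4226, 6146 and 7096 and so entered the strongest set of replicate 1. ND-75, the largest iron-sulfur subunit, had ranks 9112, 13268 and 12156. ND-30, a core subunit of the ubiquinone-side module, had ranks 15469, 6202 and 13234. ND-20, which carries the last iron-sulfur centre before ubiquinone, had ranks 21115 and 7662 in replicates 1 and 2 and no region in replicate 3. Only ND-24 of these came near the bound genes, and the nearest reproducible summit lay 6970 bp from its TSS.

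The 18 unbound accessory subunits covered the whole range. The best placed were ND-B18 at ranks 4988, 5615 and 5660, ND-B17 at 4613, 7488 and 5453, and ND-13B at 5897, 6345 and 5221. ND-13A, a zinc-binding subunit, had ranks 9099, 6075 and 4583. ND-B17 and ND-13A each entered the strongest set of 1 replicate, and the ranks of ND-B18 and ND-13B changed little between replicates.

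A middle group had regions in every replicate at ranks that varied widely. ND-ACP, the mitochondrial acyl carrier protein, had ranks 10008, 6461 and 11101. ND-15 had ranks 14893, 6336 and 12014, and ND-B22 had 10796, 5942 and 20805. ND-B16.6, whose human counterpart is also known as the cell death regulator GRIM-19, had ranks 18906, 22962 and 11966. In this group replicate 2 gave the best rank for each gene except ND-B16.6.

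Several accessory subunits lacked a region in at least 1 replicate. ND-B15 had no region in replicate 1 and ranks 10250 and 7548 in replicates 2 and 3, and ND-39, which sits where the arms of the complex meet, had none in replicate 1 and then 13062 and 9616. ND-B14.5A had ranks 15016 and 11101 in replicates 1 and 2 and no region in replicate 3. In a single replicate each, ND-19 had rank 24568, ND-B14.7 16251 and ND-B14.5B 27433, all in replicate 2. ND-AGGG had rank 17245 and ND-MLRQ 24373, both in replicate 1 only, and ND-B12 had 21221 in replicate 3 only. The mammalian counterpart of ND-MLRQ is assigned to complex IV. ND-B14 had no region in any replicate, alone among the 64 subunits.

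Complex II, succinate dehydrogenase, showed the fewest bound genes. Of its 5 genes without the L suffix, SdhC was bound (20.0%, Wilson 95% interval 3.62 to 62.4, beside 24.8% of all genes), and the replicates' own lists held 1, 2 and 0 of them. SdhC, a membrane anchor, had ranks 2874, 3565 and 5318, with the summit 198 bp upstream of its TSS and 200 bp from that of Tctp on the other strand. SdhD, the other membrane anchor, had ranks 4844, 4549 and 14411, so it entered the strongest set of replicate 2 but ranked far lower in replicate 3. SdhA, the flavoprotein that oxidises succinate, had ranks 18205, 7148 and 11001. SdhB, the iron-sulfur subunit, had ranks 14604, 9426 and 6625. Sdhaf3, an assembly factor that the naming rule also takes in, had a region in replicate 2 alone, at rank 27940. Neither catalytic subunit came within the strongest set of any replicate. The L-suffix copies had a region in at most 1 replicate. SdhAL had rank 15345 in replicate 1 and no region in the others, and SdhBL and SdhCL had no region in any.

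Complex III, cytochrome c reductase, had 2 of 6 subunit genes bound (33.3%, Wilson 95% interval 9.68 to 70.0, beside 24.8% of all genes), and 2, 4 and 1 in the replicates' own lists. UQCR-Q, a small subunit, had ranks 2272, 2793 and 2304. UQCR-14, another small subunit, had ranks 4683, 4006 and 7606. Only UQCR-Q stayed in the strongest set throughout. The core proteins UQCR-C1 and UQCR-C2, relatives of the mitochondrial processing peptidase, entered that set in replicate 2 alone. UQCR-C1 had ranks 8371, 4455 and 7641, and UQCR-C2 had 25099, 4429 and 6224. UQCR-6.4 had ranks 14685, 6077 and 7027, and UQCR-11 had rank 18092 in replicate 1 and no region elsewhere.

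Complex IV, cytochrome c oxidase, had 5 of 8 subunit genes bound (62.5%, Wilson 95% interval 30.6 to 86.3), the largest share of the 5 complexes in the reproducible list, beside 24.8% of all genes. The replicates' own lists held 3, 5 and 3 (45.8% ± 14.4, SD, n = 3). COX7B had ranks 1381, 2156 and 2325. COX5B, a subunit on the matrix side, had ranks 2114, 3296 and 6415. COX6B, on the side that meets cytochrome c, had ranks 2946, 3798 and 4212. These 3 genes were the best placed, but none came near the ranks of ND-18 or ATPsynF. COX5A had ranks 5431, 4260 and 5197, and COX7A had 5746, 7932 and 4449, each inside the strongest set of a single replicate. Among the unbound genes COX8 had ranks 4925, 3919 and 15823, COX7C had 8712, 7408 and 7730, and COX4 had no region in replicate 1 and then 7783 and 9964. In the stronger 50% of the list COX7B was the complex IV gene that remained, 1 of 8.

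Complex V, the ATP synthase, had 5 of 11 subunit genes bound (45.5%, Wilson 95% interval 21.3 to 72.0, beside 24.8% of all genes), and 5, 7 and 5 in the replicates' own lists (51.5% ± 10.5, SD, n = 3). ATPsynF, a small subunit of the membrane part, had the strongest region of the whole family, at ranks 22, 21 and 26. Its region was chr2R:24599461-24600597, with the summit 110 bp upstream of the ATPsynF TSS and 16 bp from that of CG3548, which starts 126 bp away on the other strand. ATPsynC, which forms the rotor ring, had ranks 1425, 2071 and 1493. ATPsyngamma, the central stalk, had ranks 1920, 4035 and 4183. Those 3 genes were in the strongest set of every replicate. ATPsynB, a peripheral stalk subunit, had ranks 2662, 4568 and 5489. ATPsynbeta, the catalytic subunit, had ranks 4913, 4121 and 5901, and was thus the weakest of the 5 by reproducible-list rank (3650).

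Some of the 6 unbound ATP synthase genes came close to a call. ATPsynE, in the membrane part, had ranks 4652, 2898 and 3910 and was in the strongest set of all 3 replicates, the only unbound member that was. The nearest reproducible summit lay 827 bp from its TSS. ATPsyndelta, in the central stalk, had no region in replicate 1, rank 20159 in replicate 2 and rank 1169 in replicate 3. Replicates 2 and 3 thus placed it far apart, and the nearest reproducible summit lay 621 bp away. ATPsynD, in the peripheral stalk, had ranks 5483, 8962 and 14991 and a reproducible summit 762 bp away. ATPsynCF6, also of the peripheral stalk, had ranks 6403 and 4727 and no region in replicate 3. ATPsynO, which links the peripheral stalk to the catalytic head, had ranks 24189, 7667 and 13025, and ATPsynG, in the membrane part, had 12154, 9170 and 20390. At a window of 1000 bp the count for complex V was 8 of 15 genes, L-suffix copies included, in place of 5.

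By mean share over the replicates the complexes stood in the order V, IV, III, I and II. The replicate values of V and IV overlapped, and those of III overlapped with each of the others. The values of I overlapped with those of II and III. Complex V exceeded complex I in 3 of 3 replicates, by 20.1 points ± 10.6 (exact sign-flip permutation test, two-sided, p = 0.25, the smallest possible). Complex IV exceeded complex I in 3 of 3 as well, by 14.5 points ± 14.3 (same test, exact p = 0.25). No test between complexes was planned, and V and IV are the complexes with the largest mean shares, so these p-values are descriptions. The replicate values of V and I did not overlap, nor did those of IV and I. Complex IV exceeded complex I by only 2.21 points in replicate 1. The shares of all protein-coding genes were 25.1%, 24.4% and 22.0% in replicates 1, 2 and 3. When a summit also had to lie in the strongest regions of both other replicates, complex IV had 2 bound genes without replicate 1, 2 without replicate 2 and 3 without replicate 3. With 5 to 11 genes in each complex other than I, a single gene moves a share by many points, and the Wilson intervals of all the complexes overlapped.

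**Figure D2:**
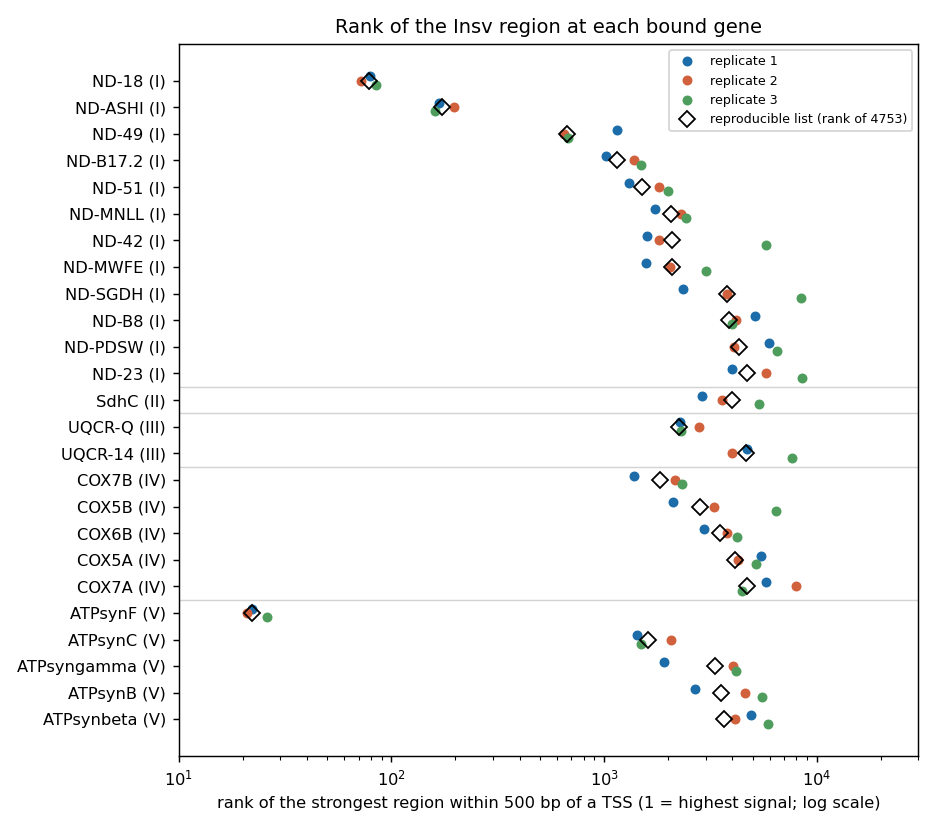
Rank of the strongest Insv region within 500 bp of a TSS (log axis, 1 = highest signal) for each of the 25 bound genes, grouped by complex (in parentheses). Points are replicates 1 to 3 and diamonds the reproducible list. ATPsynF, ND-18 and ND-ASHI stand apart at ranks from 21 to 196, and the reproducible-list ranks of the other genes lie between 667 and 4684.

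The bound genes as a group did not have stronger regions than bound genes elsewhere. Their median reproducible-list rank was 2820, beside 2278 for all bound protein-coding genes. In the stronger 50% of the list stood 48.0% of them and 52.3% of all bound genes. In the replicates the median rank of the bound members was 2114, 3296 and 4183, against 10796, 7448 and 9790 for those unbound subunits that had a region (29, 34 and 28 of the 39). These medians are a description, since the reproducible list that defines bound was made from the same replicates. Bound and unbound subunits overlapped in every replicate. Of the bound members 13 were in the strongest set of all 3 replicates, and of the 63 unbound members 10 were in that set in at least 1 replicate.

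Most duplicates with the L suffix had no listed Insv region at their promoters. Each replicate's list stops at 30000 regions, so a weaker region could be missed. No region within 500 bp in any replicate was the case for 1 of the 64 subunits and 4822 of the 13945 protein-coding genes. Of the 24 L-suffix genes, 15 had no region within 500 bp in any replicate, 8 had a region in 1 replicate and 1 in a pair of replicates. That gene was COX7AL2, a copy of COX7A, with ranks 8407 in replicate 1 and 8176 in replicate 3 and no region in replicate 2. It was also the L-suffix gene nearest to a reproducible summit, at 517 bp, just outside the window, while ND-ASHI, at 234 bp, had the largest such distance among the bound genes. COX7AL2 was the 1 gene of the 24 called under a window of 1000 bp, under overlap of the whole region, and under assignment to the nearest TSS. The median distance to the nearest reproducible summit was 16111 bp for the L-suffix genes, against 3214.5 bp for their parent genes and 1864.5 bp for all 64 subunits.

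Parent genes, the subunit genes that carry the same name without the suffix, could be set beside 20 of the 24 duplicates. These duplicates have 18 distinct parents, since ND-51 and COX7A have a pair each. Of the parents 7 were bound (38.9%, Wilson 95% interval 20.3 to 61.4), namely ND-49, ND-51, SdhC, UQCR-14, COX5B, COX7A and ATPsynbeta. The share of all genes, 24.8%, lay inside that interval. The replicates' own lists held 0% of the duplicates, against 29.6% ± 11.6 of the parents and 23.8% ± 1.61 of all protein-coding genes (SD, n = 3). No test is given here either. COX5BL and COX5B are a pair on the same arm. COX5BL had no region in any replicate and its nearest reproducible summit was 1687 bp away, while COX5B on the same arm had a summit 56 bp from a TSS. The 4 duplicates without a parent in the family, COX6AL, COX6AL2, COX6CL and ATPsynepsilonL, had at most 1 region each, at rank 29101 in replicate 3 for COX6AL and 19892 in replicate 2 for ATPsynepsilonL.

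**Figure D3:**
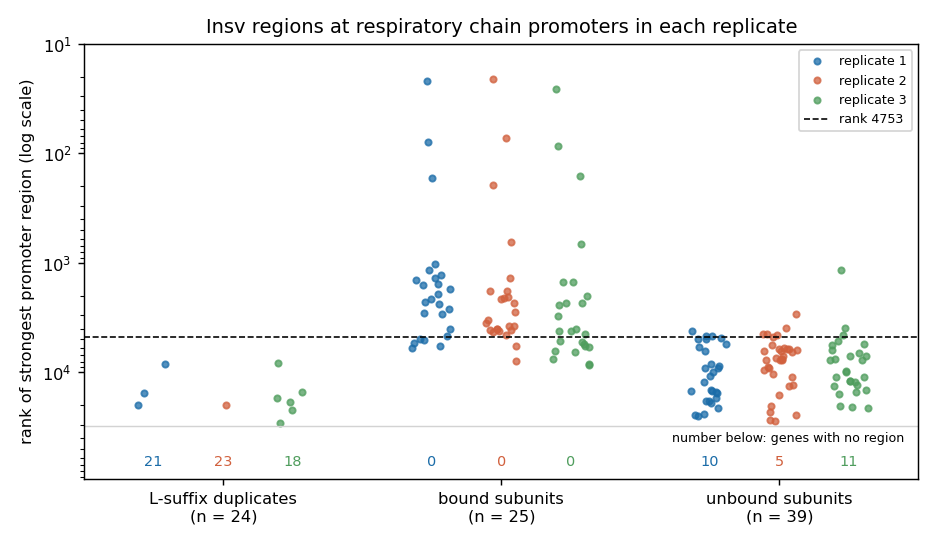
Rank of the strongest Insv region within 500 bp of a TSS (log axis, stronger upwards) in each replicate for the 24 L-suffix duplicates, the 25 bound subunits and the 39 unbound subunits. Each point is a gene, the dashed line is rank 4753, and the numbers at the bottom count genes with no region. No duplicate lies above the line, and 21, 23 and 18 of the 24 have no region in replicates 1, 2 and 3.

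Promoter arrangement differed between the duplicates and the subunits as well. A head-to-head start, meaning a divergent TSS of another gene within 1000 bp, was found at 4 of the 24 L-suffix genes (16.7%), against 33 of the 64 subunits (51.6%) and 33.3% of all protein-coding genes. Among respiratory chain genes with a head-to-head start 17 of 37 were bound (45.9%), beside 43.7% of all such genes. Among those without one 8 of 51 were bound (15.7%), beside 15.3% of all such genes. Each share of the whole family, L-suffix genes included, was thus close to that of all genes with the same arrangement. Among the subunits alone 17 of 33 with a head-to-head start were bound (51.5%) and 8 of 31 without (25.8%). Both shares were above the 43.7% and 15.3% of all genes. The complexes were not alike in this. In complex I 10 of 18 subunits with a head-to-head start were bound and 2 of 16 without, whereas in complex V 2 of 7 with one were bound and 3 of 4 without. Of the L-suffix genes 0 of 4 with a head-to-head start and 0 of 20 without were bound. The part of promoter arrangement in the difference between duplicates and subunits was not tested.

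**Figure D4:**
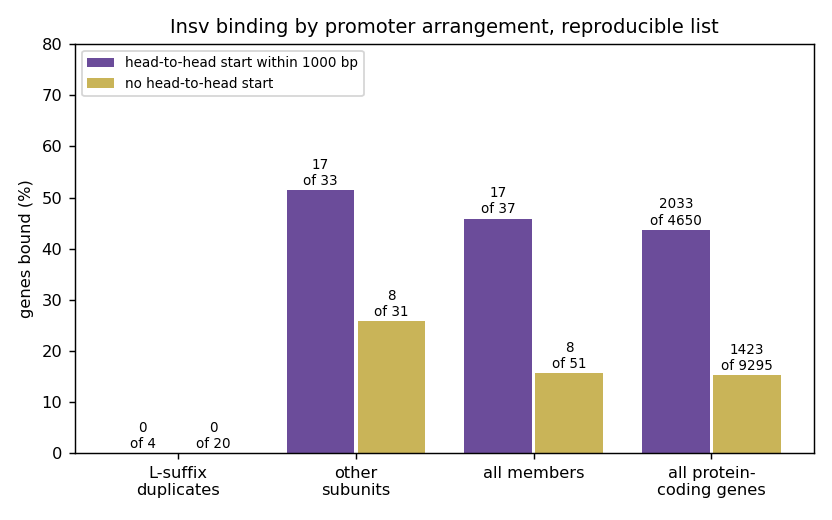
Share of genes bound in the reproducible list (percent, bars from 0) by whether the gene has a divergent start of another gene within 1000 bp. Numbers above the bars are bound genes of all genes. Members reach 45.9% and 15.7%, beside 43.7% and 15.3% of all protein-coding genes.

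Most Insv summits at these genes were shared with a neighbour. Of the 25 bound genes 21 (84.0%) had a TSS of another protein-coding gene within 500 bp of the summit, beside 58.7% of all bound genes. In 8 cases the other gene was nearer to the strongest summit, so that summit cannot be assigned to the respiratory chain gene alone. Of these, COX5B and ND-MWFE also had another reproducible summit, 56 and 63 bp from their own TSS. At ND-PDSW the summit was 1 bp from a TSS of msl-2, a gene of X chromosome dosage compensation, and 46 bp from that of ND-PDSW. At ND-23 it was 78 bp from spn-E, a helicase gene of the piRNA pathway, and 224 bp from ND-23. At COX5B it was 39 bp from IFT52, a gene of transport in cilia. The others with a nearer neighbour were ND-MWFE with TppII, ND-B8 with Secp43, COX5A with glo, COX7A with Arl2, and ATPsynF with CG3548. A few partners were themselves mitochondrial. ND-42 shared its summit with Cchl, the cytochrome c heme lyase, and ND-ASHI shared its summit with Fum1, the fumarase of the citrate cycle, whose nearest TSS was 460 bp away. No other protein-coding TSS lay within 500 bp of the strongest summit at 4 genes, ND-49, UQCR-14, ATPsynC and ATPsynB. Of these, ND-49 also had another reproducible summit, 3 bp from a TSS of its own, and a head-to-head start of Ephrin at 201 bp.

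The summits lay close to the starts. The 25 strongest summits were all different, at a median of 91 bp from the nearest TSS of the gene (range 12 to 259), beside 120 bp for all bound genes. The summit was upstream at 20 of the 25 and downstream at 5, while 82.7% of all bound genes had it upstream.

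**Figure D5:**
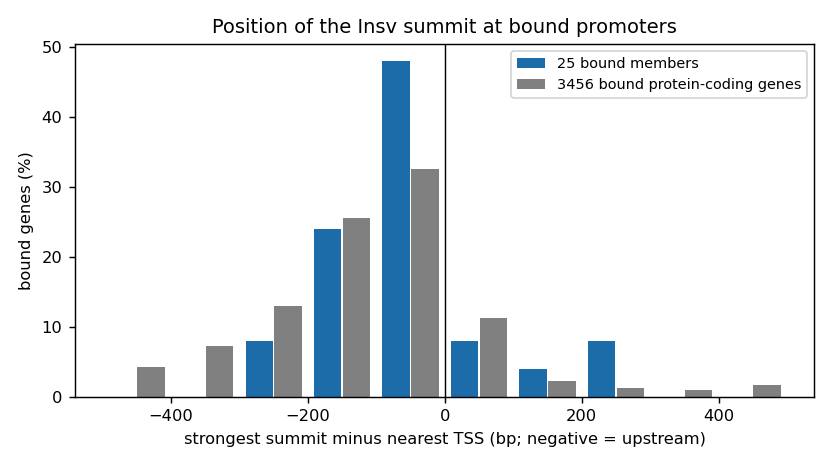
Position of the strongest summit relative to the nearest TSS of the gene (bp, negative upstream, bins of 100 bp) for the 25 bound respiratory chain genes and all 3456 bound protein-coding genes, as a percentage of each. In both groups the bin just upstream of the TSS holds more genes than any other, and the respiratory chain genes have none farther than 259 bp.

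The M1BP element stood in a larger share of subunit promoters than of all promoters, among bound and unbound subunits alike. The window was 250 bp before to 50 bp after the outermost TSS, 300 bp in all, searched on both strands. The M1BP motif, GGTCACAC, named for the zinc finger factor that binds it at promoters of constantly active genes, was present in 1 of 24 L-suffix promoters, in 15 of 64 subunit promoters (23.4%) and in 7.70% of all promoters. It was in 7 of the 25 bound and 8 of the 39 unbound subunits, and in 14.6% of all bound genes. The DREF motif, TATCGATA, was present in 0 of 24 L-suffix promoters, 9 of 64 subunit promoters (14.1%) and 9.36% of all promoters, split as 4 bound and 5 unbound subunits. CGATA, the half-site of the insulator protein BEAF-32, which also occurs inside the DREF motif, was in 10 of 24 L-suffix promoters, 36 of 64 subunit promoters (56.2%) and 47.4% of all promoters. GAGAGAG, bound by GAGA factor, was in 1 of the 24 L-suffix promoters, that of COX7AL2, in 0 of the 64 subunit promoters and in 5.87% of all. CGCATGCG, a site of Ewg, the fly counterpart of nuclear respiratory factor NRF-1, was in 0 of 88 promoters and 0.624% of all, and the nuclear respiratory gene element described in Drosophila was likewise in 0 of 88, beside 0.875% of all. In this window the Insv core site was in 0 of 64 subunit promoters, 0 of 24 L-suffix promoters and 0.947% of all promoters. Its degenerate form was in 1 of 64 subunit promoters, that of ND-18, in 0 of 24 L-suffix promoters and in 0.717% of all. A match is a description of the letters and not evidence of binding.

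The sequences below show the M1BP or DREF motif at bound, unbound and duplicate genes, with the motif in capitals, on the plus strand, where an M1BP match on the minus strand reads GTGTGACC. ND-PDSW is chr2L:3466113-3466156, with the motif 23 bp from the Insv summit. ND-23 is chr3R:15837291-15837391, with the DREF motif 20 bp from the summit. COX7B is chr3L:17425475-17425504, bound, with the motif 129 bp from the summit. ND-B17 is chr2L:15751075-15751104 and unbound, and COX7AL is chr3R:8343497-8343526, the 1 duplicate with the motif.
ND-PDSW: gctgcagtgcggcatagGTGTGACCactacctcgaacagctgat
ND-23: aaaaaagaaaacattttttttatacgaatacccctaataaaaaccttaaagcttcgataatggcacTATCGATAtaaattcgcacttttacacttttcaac
COX7B: aacaacacaacGGTCACACtgttcaacaca
ND-B17: tgttgccgccaGTGTGACCgcactcttaaa
COX7AL: gagagcgaataGTGTGACCtaatttggcat

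At the summits themselves, within 50 bp, M1BP was found at 1 of the 25 bound genes (ND-PDSW) and at 4.60% of all bound genes, and DREF at 1 of 25 (ND-23) and at 5.61%. The BEAF-32 half-site was found there at 6 of 25 (24.0%), beside 26.0% of all bound genes. For each of these motifs the share at the bound respiratory chain genes was near or below that of all bound genes.

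Other nuclear gene groups of mitochondria and of large complexes give a scale for these shares. They were taken by symbol start with no duplicates removed, whereas the 64 subunits leave out the L-suffix genes. No region in any replicate was the case for 14 of 48 proteasome genes and 1 of the 64 subunits. For mitochondrial and cytosolic ribosomal protein genes it was 2 of 73 and 3 of 92. The 64 subunits averaged 36.5% ± 8.61 bound in the replicates, against 41.1% ± 3.62 of 73 mitochondrial ribosomal protein genes (difference -4.64 points ± 5.42, positive in 1 of 3 replicates, exact sign-flip permutation test, two-sided, p = 0.5). Against 48 proteasome genes, at 31.2% ± 3.61, the difference was 5.21 points ± 9.50 (positive in 2 of 3, exact sign-flip permutation test, two-sided, p = 0.75). Neither difference exceeded its spread. All 88 members, L-suffix genes included, averaged 26.5% ± 6.26. They were lower than the mitochondrial ribosomal protein genes in 3 of 3 replicates, by -14.6 points ± 3.21 (exact sign-flip permutation test, two-sided, p = 0.25, the smallest possible). Against 92 cytosolic ribosomal protein genes, at 76.1% ± 2.17, the subunits were lower in 3 of 3 replicates, by -39.6 points ± 6.44 (exact sign-flip permutation test, two-sided, p = 0.25, the smallest possible). A head-to-head start was present at 51.6% of the subunits, 76.7% of the mitochondrial ribosomal, 45.8% of the proteasome and 58.7% of the cytosolic ribosomal protein genes.

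Chain genes that carry other names were bound in 6 of 10 cases, beside 24.8% of all genes. The gene blw, the catalytic-head subunit alpha of the ATP synthase, had ranks 334, 287 and 375, better than every ATPsyn gene but ATPsynF. Cyt-c1, the cytochrome of complex III, had ranks 751, 901 and 875. Cyt-c-d, a cytochrome c gene known for its role in male germ cells, had ranks 2508, 1541 and 3638, and levy, a complex IV subunit, had 1922, 2461 and 2345. Cyt-c-p and ox were bound as well, and Cyt-c1L, RFeSP, cype and sun were not. The summits at Cyt-c1 and Cyt-c-d lay 414 and 380 bp from a TSS. Within 250 bp 4 of the 10 genes were bound, beside 20.9% of all genes. Cyt-c1L, the L-suffix copy of Cyt-c1, had a region in replicate 3 alone, at rank 24715.

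Of 9 assembly factor genes 4 were bound, beside the same 24.8%. Surf1, needed to assemble cytochrome c oxidase, had ranks 300, 253 and 287. CIA30, an assembly factor of complex I, had ranks 1192, 1559 and 2800. Cox17, a copper chaperone for complex IV, had ranks 2381, 2115 and 2471, and Sirup, an assembly factor of complex II, had 3438, 5495 and 4375. Surf1 was thus in a range that 3 of the 88 chain genes reached or passed.

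Of 15 genes of the citrate cycle and pyruvate dehydrogenase, which feed the chain, 8 were bound, beside 24.8% of all genes. Fum1 had ranks 167, 196 and 161, from the summit it shares with ND-ASHI. The acetyltransferase gene of pyruvate dehydrogenase, muc, had ranks 194, 319 and 336. Idh3g, a subunit of isocitrate dehydrogenase, had ranks 839, 958 and 1608, and Pdhb, a subunit of pyruvate dehydrogenase, had 1691, 2673 and 4179. Of 12 genes for mitochondrial DNA maintenance, its expression and regulators of respiratory genes, 5 were bound, beside the same share. Among them mtSSB, the single-strand binding protein of mitochondrial DNA, had ranks 1226, 823 and 773. ERR, a nuclear receptor that activates metabolic genes, had ranks 1266, 1542 and 2755. PolG2, the accessory subunit of the mitochondrial DNA polymerase, had ranks 3710, 2192 and 3513, and Ets97D, the fly GABP alpha, had 4012, 3021 and 2504. These lists are small and were chosen with earlier results of these data known, so their counts are given as descriptions.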

How the data were processed

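Insv-GFP was measured by ChIP-seq in 3 biological replicates that form a single group. Per the deposited read-me files, the region lists are in narrowPeak layout and the authors derived the reproducible list from the replicate lists by IDR. Read depth, IDR threshold, peak caller and aligner: not given in the sources used here. The deposited signal of each region is a score of unstated scale and was used only as a rank within a list. The authors' −log10 q-value was used only to count regions below 0.05. The deposited summit offset, in bp from the region start, is another column. Lists exist on dm6 and dm3; the 5 dm3 lists and the pooled relaxed list were not used.

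Genes and TSSs came from Ensembl release 115 (BDGP 6.54), and sequence from the RefSeq genome of the same Release 6 (dm6) assembly. Members with the L suffix (24) were those whose symbol ends in L or in L and a digit; ND-MNLL, named for its residues, was counted as a subunit. In the list of assembly factors Coa3 was matched to Ccdc56 by its older symbol, ecsit and bcs1 were not matched, and Sdhaf3 is also a member. Members and lists were chosen with earlier results of these data known. Values in every replicate are given for the 5 best-ranked bound genes of each complex, every Sdh gene, every unbound member without the L suffix, and up to 4 bound genes of each other list; COX7AL2, the other Sdh duplicates, COX6AL, ATPsynepsilonL, and Cyt-c1L were added after their values were seen.

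Shares have Wilson 95% intervals. Differences between gene groups were taken within each replicate's 4753 strongest regions and tested by an exact sign-flip permutation test over the 3 replicates, two-sided; p-values reflect only the spread between these replicates, and genes were not treated as replicates. The sign-flip test was planned only for all members against all other genes, and the other tests were added. No enrichment test was run. The calls of bound genes within 500 bp and the motif search were tested on simulated data, and the other steps were not. Alternatives were other windows, assignment rules, TSS choices, the stronger 50% of the list, each replicate's list and leaving out each replicate. The tools were matplotlib 3.10.9, scipy 1.17.1, pandas 2.3.3 and numpy 2.4.6 under Python 3.11.15.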

Additional observations from a re-analysis of the deposited data

How the results depend on the processing

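Of 109 values recomputed under the alternatives, 78 stayed within 1.5 times the reported count. The stronger 50% of the list gave 12 bound genes in place of 25, with 0 in complex II, 1 in III, 1 in IV and 2 in V, and 4 citrate cycle genes, 2 mitochondrial DNA and regulator genes, 17 mitochondrial ribosomal and 8 proteasome genes. That alternative keeps fewer regions by construction. In single replicates' own lists complex II had 2 in replicate 2 and 0 in replicate 3, complex III 4 and 1, and complex IV 3 in replicate 1 and 3 in replicate 3. At 1000 bp complex V had 8. The L-suffix genes had 1 at 1000 bp, 1 by region overlap and 1 by nearest TSS, each time COX7AL2, since its nearest summit is 517 bp away.

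Leaving out a replicate kept the reproducible summits found in the strongest regions of both others, a stricter filter, since the reproducible list still draws on all 3. The family then had 13 to 19 bound genes (14 without replicate 1, 13 without replicate 2), complex I 7 to 9, II 0 to 1, III 1 to 2, IV 2 to 3, V 3 to 4, and the L-suffix genes 0. No paired analysis was possible because there is no second group of samples to pair with; the tests over replicates compare gene groups within the same sample. Depth is unknown, so a region absent from a replicate's list may lie below its limit of 30000 regions.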

Other observations

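The bound genes were spread over all 6 arms. Both respiratory chain genes of chromosome 4, ND-49 and ATPsynbeta, were bound, beside 15.0% of the 80 genes of that chromosome. On 2R 2 of 17 were bound beside 24.1% of all genes there, and on 3R 7 of 20 beside 27.0%. With so few genes per arm these are descriptions.

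The 3 subunit genes farthest from any reproducible summit all lie toward one end of 3L. UQCR-11 (chr3L:25120709-25126171) was 2241816 bp from the nearest reproducible summit, ND-AGGG (chr3L:24976254-24977118) was 2097361 bp away and ND-MLRQ (chr3L:23339326-23345936) was 460433 bp away. Each had a single weak region, in replicate 1, and none in replicates 2 and 3. Whether reads can be placed in that stretch was not tested.

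The region at mtTFB1 and Ccdc56, a mitochondrial transcription factor gene and a cytochrome oxidase assembly gene, gave both genes the same ranks, 6457, 6934 and 7173, outside the strongest set in every replicate.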
